A study of Mus musculus with 2 samples.

Results

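The data described here are the transcripts of 10 chemokine genes, Ccl2, Ccl3, Ccl4, Ccl5, Ccl6, Ccl7, Ccl9, Ccl12, Ccl24 and Pf4, among the 27998 genes counted in 2 single-cell RNA libraries of mouse brain. The members were taken by symbol from the gene file of each library, and all 10 were found in both. The Repop D5 library pooled brains of 6 adult wild-type C57BL/6J mice fed PLX5622 for 14 days, followed by 5 days of control diet. PLX5622 blocks Csf1r, a receptor microglia need to survive. The CD library pooled brains of 4 adult wild-type C57BL/6J mice kept on control diet for 19 days. Both were papain-dissociated, cleared of myelin on Percoll and sorted as CD11b+/CD45+ cells, surface proteins shared by microglia and other myeloid cells, before droplet capture (10x Genomics). Each group is 1 library of pooled mice, so no test between groups was possible, every interval covers counting error alone, and the words higher and lower always speak of Repop D5 against CD.

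Chemokines are small secreted proteins that steer leukocytes through G protein-coupled receptors, and the CC family is named for its adjacent cysteines. In the brain they are made by microglia, by the macrophages of the meninges and vessels, and by monocytes that enter from blood, many of them shortly after a stimulus. Ccl2, Ccl7 and Ccl12 attract monocytes through Ccr2, Ccl3, Ccl4 and Ccl5 attract monocytes and T cells, Ccl6 and Ccl9 are mouse chemokines of myeloid cells that act through Ccr1, and Ccl24 attracts eosinophils through Ccr3. Pf4 belongs to the CXC family, is stored in platelet granules and is also transcribed by border macrophages.

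The Repop D5 matrix held 585 cell barcodes, of which 553 passed the filter (500 or more genes, less than 10% mitochondrial UMIs), and the CD matrix held 609, all of which passed. A UMI, or unique molecular identifier, stands for 1 captured RNA molecule. The retained barcodes had 11037921 UMIs in Repop D5 (median 16226 per barcode) and 6055886 in CD (median 5982), and 1 barcode sequence occurs in both lists. All 11 microglia markers were detected in both libraries, with a summed level of 11938 CPM (UMIs of the gene per 1000000 UMIs) in Repop D5 and 26971 CPM in CD. The barcodes fell into 12 clusters, numbered from 0, that were built without any chemokine gene. Cluster 4 (border macrophage-like, 106 CD barcodes and 0 Repop D5 barcodes), cluster 7 (monocyte-like, 43 Repop D5 and 29 CD barcodes) and cluster 10 (neutrophil-like, 7 Repop D5 and 47 CD barcodes) were led by markers of other myeloid cells. Cluster 4 also carried microglia markers at 25874 CPM, beside border macrophage markers at 1817 CPM. CD clusters 0, 3 and 6 had microglia markers at 31477.3, 26334.5 and 30475.5 CPM. The part of microglial RNA in the chemokine levels of cluster 4 was not tested. The clusters other than 4, 7 and 10 held 503 Repop D5 barcodes (median 16580 UMIs) and 427 CD barcodes (median 5025 UMIs). Nearly all of them were of 1 library, so such a cluster may reflect its library rather than a type, and 3 of them (clusters 0, 1 and 6) had a marker of another class and no microglia marker among their leading genes. Chemokine levels are therefore given over all retained barcodes, over the barcodes outside clusters 4, 7 and 10, and by cluster number.

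Of the 10 genes, 8 lie in 2 groups on chromosome 11 (mm10). Ccl2 (ENSMUSG00000035385, chr11:82035571-82037453), Ccl7 (ENSMUSG00000035373, chr11:82045712-82047525) and Ccl12 (ENSMUSG00000035352, chr11:82101845-82103400) follow each other on the plus strand. Ccl5 (ENSMUSG00000035042, chr11:83525778-83530518), Ccl9 (ENSMUSG00000019122, chr11:83572919-83578636), Ccl6 (ENSMUSG00000018927, chr11:83587882-83593087) and Ccl3 (ENSMUSG00000000982, chr11:83647844-83649355) lie on the minus strand, next to Ccl4 (ENSMUSG00000018930, chr11:83662584-83664683) on the plus strand. Pf4 (ENSMUSG00000029373, chr5:90772435-90773383, plus strand) and Ccl24 (ENSMUSG00000004814, chr5:135569937-135573049, minus strand) are on chromosome 5. The antisense gene Gm17268, which overlaps Ccl2, had 0 UMIs in both libraries. E230016K23Rik, which overlaps Ccl6 on the opposite strand, was not analysed here, and whether the counting used strand is not given in the sources used here.

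Promoter sequence from RefSeq (GRCm38.p6, the 250 bases before the gene start) was at hand for 5 of the 10 genes, Ccl12, Ccl6, Ccl9, Ccl3 and Pf4, and not for Ccl2, Ccl4, Ccl5, Ccl7 and Ccl24. The sequences are shown for the gene that was higher in Repop D5, for the neighbours Ccl6 and Ccl9 that were both lower, and for Pf4. Capitals mark matches, on either strand, to any of 5 motifs: the TATA box TATAAA, the AP-1 site TGANTCA, the ETS site CAGGAAG, and, by name, the decameric NF-kB site and the interferon-stimulated response element.
Ccl12 (chr11:82101595-82101844, plus strand): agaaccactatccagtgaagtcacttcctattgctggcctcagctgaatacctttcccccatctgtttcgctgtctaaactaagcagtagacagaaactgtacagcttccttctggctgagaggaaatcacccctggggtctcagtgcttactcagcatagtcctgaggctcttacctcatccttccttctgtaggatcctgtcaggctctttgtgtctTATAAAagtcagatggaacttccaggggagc
Ccl6 (chr11:83593088-83593337, minus strand): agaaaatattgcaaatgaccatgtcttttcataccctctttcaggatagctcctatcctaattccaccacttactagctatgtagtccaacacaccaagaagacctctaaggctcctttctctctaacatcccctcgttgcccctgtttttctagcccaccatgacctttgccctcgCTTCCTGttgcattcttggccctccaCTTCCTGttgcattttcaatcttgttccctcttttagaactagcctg
Ccl9 (chr11:83578637-83578886, minus strand): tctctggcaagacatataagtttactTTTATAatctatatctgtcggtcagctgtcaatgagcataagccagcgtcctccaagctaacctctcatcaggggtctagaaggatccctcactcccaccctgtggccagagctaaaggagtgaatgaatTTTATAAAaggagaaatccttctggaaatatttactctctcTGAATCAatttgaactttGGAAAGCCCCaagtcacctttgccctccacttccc
Pf4 (chr5:90772185-90772434, plus strand): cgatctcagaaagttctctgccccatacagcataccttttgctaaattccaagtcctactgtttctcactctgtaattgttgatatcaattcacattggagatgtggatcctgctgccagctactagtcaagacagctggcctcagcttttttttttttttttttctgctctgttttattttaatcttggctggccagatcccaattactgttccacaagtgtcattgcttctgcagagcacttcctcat
The Ccl12 promoter holds 1 TATAAA, at base -31 from the gene start. The Ccl6 promoter holds CAGGAAG as its reverse complement at bases -73 and -47. The Ccl9 promoter holds an NF-kB match at base -35, an AP-1 match at base -53 and TATAAA matches at bases -224, -94 and -92, of which the last 2 overlap. The promoters of Ccl6 and Ccl9 share a run of 13 bases, gccctccacttcc, which begins at base -55 of Ccl6 and base -14 of Ccl9. The promoters of Ccl12 and Pf4 share another run of 13 bases, gctggcctcagct. None of the motifs was found in the windows of Pf4 or Ccl3. Among 32536 mouse promoters of the same length, TATAAA occurred in 12.3%, the NF-kB motif in 1.40%, AP-1 in 6.73%, the interferon motif in 2.98% and the ETS motif in 10.8%. A match describes letters in the window and not a bound site.

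Across all retained barcodes the chemokines differed in both directions. Calls required a difference of at least 2-fold whose 95% interval lay clear of 1, among genes that reached 10 CPM in 1 library or both. By this rule Ccl5 and Ccl12 were higher in Repop D5, 2 of 10 members, against 9.61% of the 8463 genes measured. Ccl6, Ccl7, Ccl9, Ccl24 and Pf4 were lower, 5 of 10 members, against 23.8% of all genes. Ccl2, Ccl3 and Ccl4 did not reach the fold. Outside clusters 4, 7 and 10 Ccl2 joined the higher genes, which made 3 of 10 members against 10.6% of 8405 genes, and the same 5 genes were lower against 23.1%. The median log2 ratio was -1.02 over the 10 members and -0.38 over all genes measured. Higher genes made up 28.7% of all called genes with the UMI total as scale, 64.4% with trimmed-mean scaling, which adds 0.46 to every log2 ratio, and 48.4% with a total free of mitochondrial and ribosomal protein genes, which adds 0.27.

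**Figure D1:**
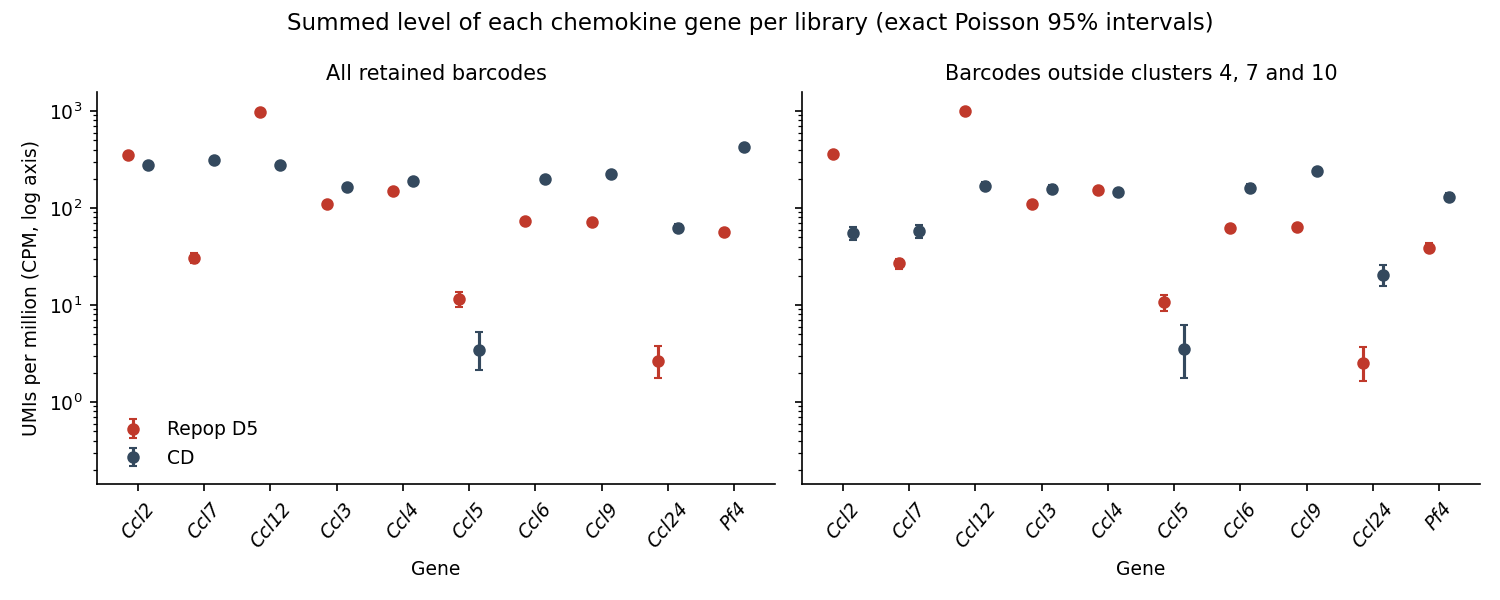
Level of each chemokine gene as CPM on a log axis in the Repop D5 library (red, left of each pair) and the CD library (dark, right), over all retained barcodes (left panel) and outside clusters 4, 7 and 10 (right panel), with exact Poisson 95% intervals. Ccl12 lies higher in Repop D5 in both panels, Ccl2 separates widely only in the right panel, and Ccl7, Ccl24 and Pf4 lie lower in Repop D5 in both.

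Among the ligands of Ccr2, Ccl12, a mouse monocyte attractant, was higher in Repop D5 in both sets of barcodes. Ccl12 had 970 CPM in Repop D5 (10704 UMIs) and 278 CPM in CD (1685 UMIs), a ratio of 3.49 (95% interval 3.31 to 3.67). It had 1009 CPM in Repop D5 and 170 CPM in CD outside clusters 4, 7 and 10, a ratio of 5.92 (5.43 to 6.47). It was spread over the whole Repop D5 library, where every cluster outside 4, 7 and 10 had between 308 CPM (cluster 8) and 2054 CPM (cluster 11). The CD clusters outside 4, 7 and 10 had between 112 CPM (cluster 0) and 217 CPM (cluster 6). Cluster 11 is led by the interferon-induced genes Rsad2 and Ifit3, which the clustering used, and its type I interferon list summed to 3688 CPM. That list summed to 831 to 889 CPM in the other Repop D5 clusters outside 7 and 10. In Repop D5 cluster 7 it summed to 2357 CPM, with Ccl12 at 417 CPM. In Repop D5 cluster 10, of 7 barcodes, it summed to 1623 CPM, with Ccl12 at 168 CPM. Across barcodes outside clusters 4, 7 and 10, Ccl12 and the list had a Spearman correlation of 0.024 in Repop D5 (n = 503). It was 0.117 in CD (n = 418). The Pearson correlation of log values was 0.062 in Repop D5 and 0.226 in CD.

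Ccl2, which draws monocytes out of bone marrow and into tissue, had 349 CPM in Repop D5 (3857 UMIs) and 276 CPM in CD (1669 UMIs), a ratio of 1.27 (1.20 to 1.34) that missed the fold. It had 358 CPM in Repop D5 and 55.1 CPM in CD outside clusters 4, 7 and 10, a ratio of 6.51 (5.58 to 7.62). Most of the CD transcripts were in cluster 4, which held 17.4% of the CD barcodes and 80.0% of the CD Ccl2 UMIs, at 656 CPM, while CD clusters 0, 3 and 6 had 47.3, 74.2 and 47.3 CPM. In Repop D5, which had no barcode in cluster 4, Ccl2 was highest in cluster 9 at 607 CPM and in cluster 1 at 524 CPM, and lowest in clusters 8 and 10 at 106 and 74.6 CPM. Cluster 9 is led by Tnf, Il1a, Il1b and Ccrl2 and cluster 1 by Ch25h and Ass1.

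Ccl7, a ligand of Ccr2 and other receptors encoded next to Ccl2, did not follow its neighbour. Ccl7 had 30.5 CPM in Repop D5 (337 UMIs) and 313 CPM in CD (1898 UMIs), 10.3-fold lower (9.14 to 11.6). Cluster 4 held 79.6% of the CD Ccl7 UMIs, at 742 CPM. Outside clusters 4, 7 and 10 Ccl7 had 26.8 CPM in Repop D5 and 57.3 CPM in CD, 2.14-fold lower (1.76 to 2.59). A single Repop D5 barcode of cluster 9 carried 73 of the 277 Repop D5 UMIs there, and without the barcode richest in Ccl7 in each library the gene was 2.76-fold lower. There were 11.4 Ccl2 UMIs per Ccl7 UMI in Repop D5 (10.2 to 12.8) and 0.879 in CD (0.823 to 0.940). This ratio was 13.4 in Repop D5 (11.8 to 15.2) and 0.961 in CD (0.776 to 1.19) outside clusters 4, 7 and 10, and within CD cluster 4 it was 0.884 (0.821 to 0.952). The CD library thus had about as many Ccl7 as Ccl2 UMIs in and outside cluster 4, and the Repop D5 library had mostly Ccl2.

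**Figure D2:**
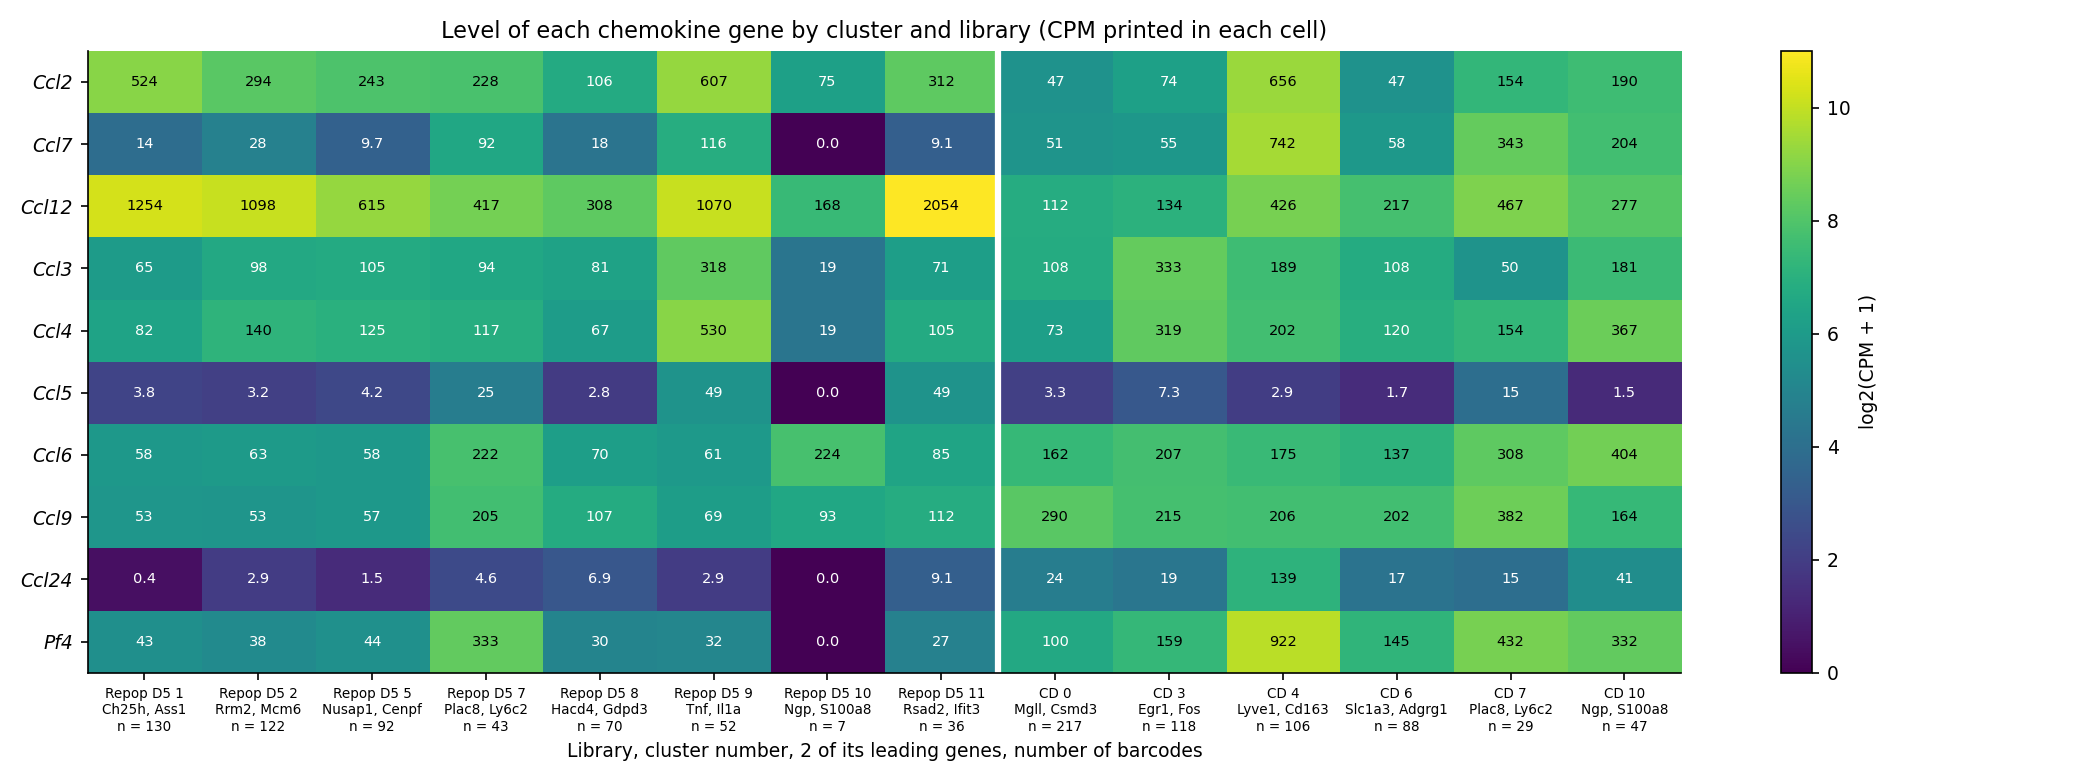
Level of the 10 chemokine genes (rows) in each cluster of Repop D5 (left of the white line) and CD (right), with the CPM printed in each cell, colour as log2(CPM + 1) and 2 leading genes and the number of barcodes under each column; groups of under 5 barcodes are not shown. Ccl2, Ccl7, Ccl24 and Pf4 are brightest in CD in cluster 4, Ccl3 and Ccl4 are brightest in Repop D5 in cluster 9, and Ccl12 is bright across the Repop D5 columns.

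As a share of the cluster 4 level, the Ccl2 and Ccl7 levels of the other CD clusters lay within the wide range of the border macrophage markers. The CD level outside clusters 4, 7 and 10 was 8.40% of the cluster 4 level for Ccl2, 7.73% for Ccl7, 14.6% for Ccl24 and 14.1% for Pf4, and 40.0% for Ccl12. For the 10 border macrophage markers the same share ran from 5.05% (Lyve1) to 50.5% (Siglec1), with a median of 10.6%. Over all retained barcodes these markers summed to 201 CPM in Repop D5 and 942 CPM in CD, and Cd209f was at 0 in Repop D5. There 8 of the 8 measured were lower, against 23.8% of all genes measured. Outside clusters 4, 7 and 10 the markers summed to 160 CPM in Repop D5 and 412 CPM in CD, with 5 of 5 measured lower, against 23.1% of all genes. The part of RNA from border macrophages in the levels of the other CD clusters was not tested.

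Ccl3 and Ccl4, rapidly induced chemokines of activated myeloid cells, differed by less than 2-fold in total. Ccl3 had 109 CPM in Repop D5 and 167 CPM in CD, 1.52-fold lower (1.40 to 1.66), and 111 CPM in Repop D5 and 156 CPM in CD outside clusters 4, 7 and 10. Ccl4 had 151 CPM in Repop D5 and 189 CPM in CD, 1.26-fold lower (1.16 to 1.36), and under trimmed-mean scaling the ratio was 1.09. Ccl4 had 154 CPM in Repop D5 and 145 CPM in CD outside clusters 4, 7 and 10, a ratio of 1.06 (0.956 to 1.18). In Repop D5 both had their highest level in cluster 9, with 318 CPM of Ccl3 and 530 CPM of Ccl4. Cluster 9 held 9.40% of the Repop D5 barcodes, 27.4% of their Ccl3 UMIs and 33.1% of their Ccl4 UMIs. Clusters 2 and 5 held 22.6% and 22.6% of the Ccl3 UMIs and 23.5% and 19.4% of the Ccl4 UMIs. The other Repop D5 clusters had 18.7 to 105 CPM of Ccl3 and 18.7 to 140 CPM of Ccl4. In CD cluster 3, led by Egr1 and Fos, Ccl3 had 333 CPM and Ccl4 had 319 CPM. CD cluster 4 had 189 CPM of Ccl3 and 202 CPM of Ccl4. It held 38.2% of the CD Ccl3 UMIs and 36.0% of the CD Ccl4 UMIs, the largest share of any CD cluster. CD cluster 10 had 181 CPM of Ccl3 and 367 CPM of Ccl4. There the barcode richest in each gene held 53 of the 123 Ccl3 UMIs and 106 of the 249 Ccl4 UMIs. CD clusters 0 and 6 had 108 and 108 CPM of Ccl3 and 73.4 and 120 CPM of Ccl4. CD cluster 7 had 49.6 CPM of Ccl3 and 154 CPM of Ccl4, where 1 barcode held 22 of the 31 Ccl4 UMIs.

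Part of the cluster 3 level came from 1 CD barcode with 91 Ccl3 UMIs and 116 Ccl4 UMIs among 3107 UMIs. Without the richest barcode cluster 3 had 202 CPM of Ccl3 and 151 CPM of Ccl4. Without it outside clusters 4, 7 and 10, and without the richest Repop D5 barcode, Ccl4 had 142 CPM in Repop D5 and 108 CPM in CD, a ratio of 1.32 (1.17 to 1.49). Cluster 3 also carried haemoglobin and other erythroid transcripts at 14038 CPM, against 54.8 and 61.2 CPM in CD clusters 6 and 0. Over all retained barcodes that list of 5 summed to 2.72 CPM in Repop D5 and 1642 CPM in CD, and Alas2 was at 0 in Repop D5. There 4 of the 4 measured were lower, against 23.8% of all genes measured. The part of erythroid RNA in the chemokine levels of cluster 3 was not tested. In cluster 9 the levels were carried by more barcodes, with 40 of 52 having a Ccl3 UMI and 45 of 52 a Ccl4 UMI, and without the richest barcode Ccl3 had 269 CPM and Ccl4 had 438 CPM.

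Ccl3 and Ccl4 shared barcodes more than their separate shares give. With every barcode thinned at random to 3000 UMIs, outside clusters 4, 7 and 10, 36.3% of the Repop D5 barcodes with Ccl4 also had Ccl3 (exact 95% interval 27.0 to 46.4), against 20.1% of all those Repop D5 barcodes. In CD 30.1% of the barcodes with Ccl4 had Ccl3 (20.5 to 41.2), against 20.3% of all. Across the 52 Repop D5 barcodes of cluster 9 the thinned log values of Ccl3 and Ccl4 had a Pearson correlation of 0.83 and a Spearman correlation of 0.71, and these barcodes share 1 library. Across the 118 CD barcodes of cluster 3 the same pair had a Pearson correlation of 0.60 and a Spearman correlation of 0.24. Across the 106 CD barcodes of cluster 4 it had a Pearson correlation of 0.30 and a Spearman correlation of 0.23. The pair Ccl2 and Ccl7 had a Pearson correlation of 0.76 and a Spearman correlation of 0.57 in that cluster. At least 5 thinned UMIs of both Ccl2 and Ccl7 were found in 2 of 553 Repop D5 barcodes and in 14 of 599 CD barcodes, of which 13 were in cluster 4. Outside clusters 4, 7 and 10, correlations with other genes were computed for the members found in at least 10% of thinned barcodes, which left out Ccl5, Ccl7, Ccl24 and Pf4 in Repop D5 (n = 503) and Ccl5 and Ccl24 in CD (n = 418). No gene reached a Pearson correlation of 0.3, and the highest, 0.299, was between Ccl4 and Fos in Repop D5.

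**Figure D3:**
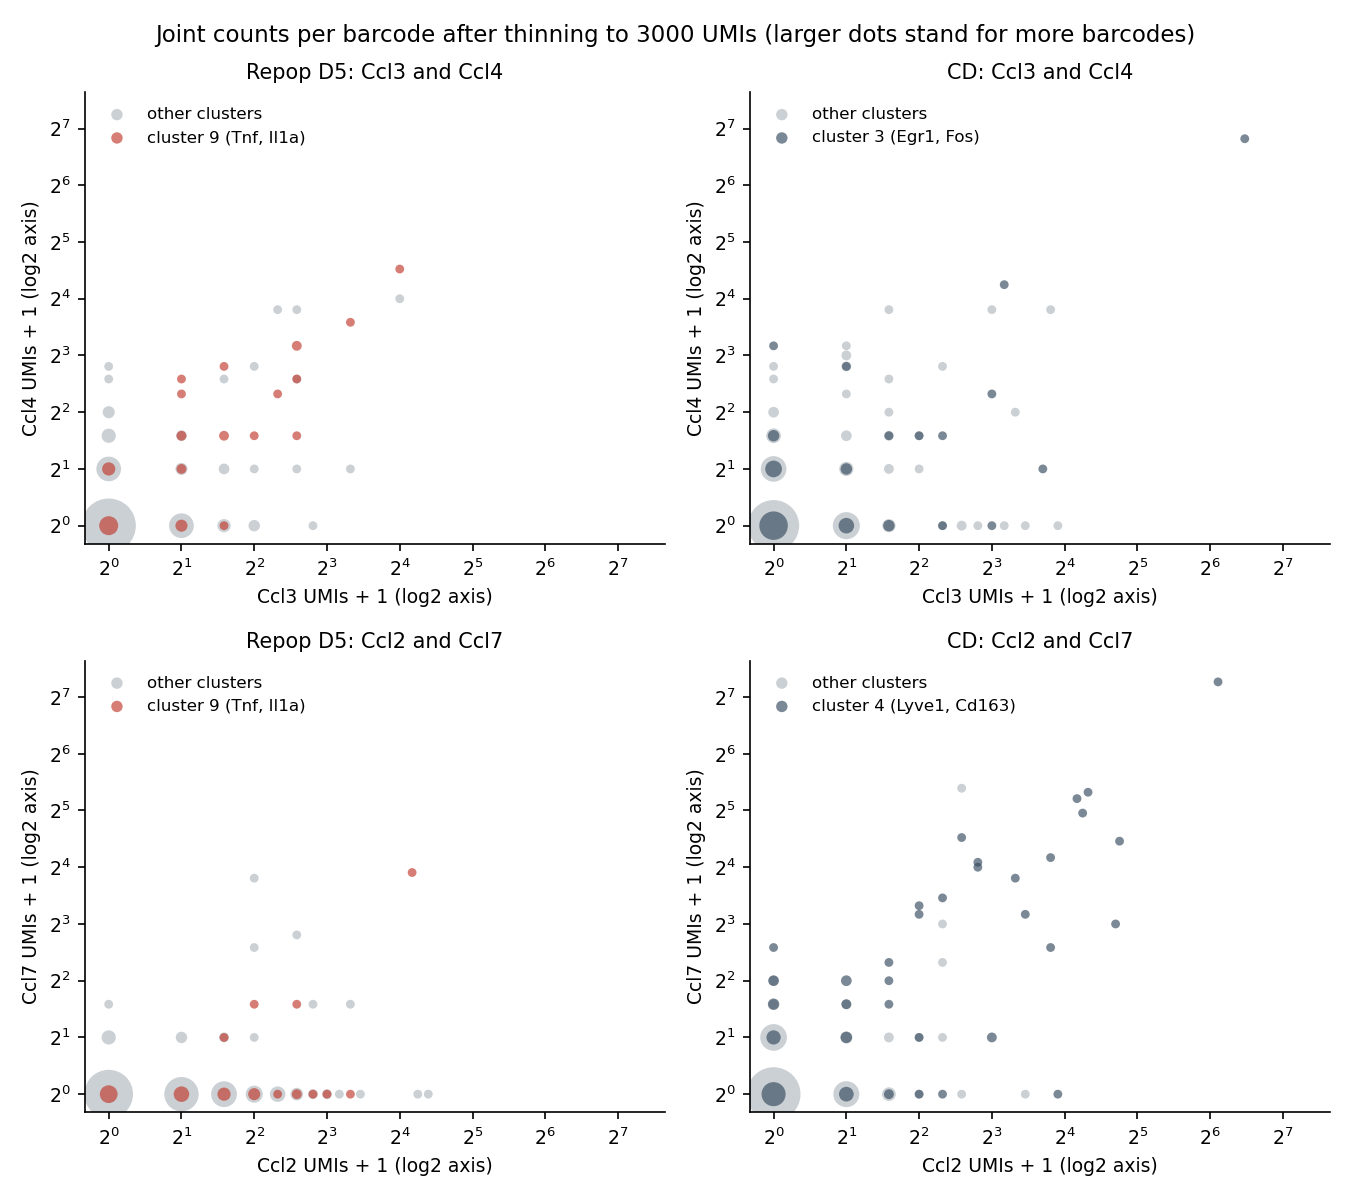
Thinned UMIs plus 1 of Ccl3 against Ccl4 (top) and Ccl2 against Ccl7 (bottom) in each barcode, on log2 axes, for Repop D5 (left) and CD (right), with 1 cluster coloured and larger dots for more barcodes at the same place. Barcodes rich in both Ccl3 and Ccl4 include cluster 9 of Repop D5, while barcodes rich in both Ccl2 and Ccl7 are mostly CD cluster 4.

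Ccl5, a chemoattractant of T cells and monocytes, was scarce in both libraries. It had 11.4 CPM in Repop D5 (126 UMIs) and 3.47 CPM in CD (21 UMIs), a ratio of 3.29 (2.06 to 5.50). A single barcode of cluster 9 held 48 of the 126 Repop D5 UMIs. Without the richest barcode of each library Ccl5 had 7.07 CPM in Repop D5 and 2.81 CPM in CD, a ratio of 2.52 (1.48 to 4.54), and it no longer reached 10 CPM in either library and lost its call. In Repop D5 the Ccl5 level was 48.9 CPM in cluster 11, where 1 barcode held 14 of 27 UMIs, 24.5 CPM in cluster 7, where 1 barcode held 12 of 16, and 2.93 CPM in cluster 9 without its richest barcode. T cell markers summed to 0.725 CPM in Repop D5 and 6.44 CPM in CD, and natural killer cell markers to 0.0906 CPM in Repop D5 and 0.165 CPM in CD.

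Ccl6 and Ccl9, chemokines that mouse myeloid cells make without stimulation, were both lower in Repop D5. Ccl6 had 72.7 CPM in Repop D5 (802 UMIs) and 198 CPM in CD (1200 UMIs), 2.73-fold lower (2.49 to 2.99). Ccl9 had 71.8 CPM in Repop D5 (793 UMIs) and 225 CPM in CD (1362 UMIs), 3.13-fold lower (2.87 to 3.42). Ccl6 had 62.4 CPM in Repop D5 and 162 CPM in CD outside clusters 4, 7 and 10, 2.59-fold lower (2.30 to 2.91). Ccl9 had 63.3 CPM in Repop D5 and 241 CPM in CD there, 3.80-fold lower (3.42 to 4.23). With trimmed-mean scaling Ccl6 was 1.99-fold lower and lost its call. Outside clusters 4, 7 and 10 neutrophil markers summed to 858 CPM in Repop D5 and 2383 CPM in CD, with 6 of 8 measured lower, against 23.1% of all genes. The part of neutrophil RNA in the Ccl6 and Ccl9 levels was not tested.

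Outside clusters 4, 7 and 10 the cluster levels of the libraries did not overlap for either Ccl6 or Ccl9. These clusters are parts of the pooled libraries and not replicates, and how many of all genes separate in this way was not tested. Ccl6 had 57.9 to 85.2 CPM in the Repop D5 clusters and 137 to 207 CPM in the CD clusters, and Ccl9 had 52.5 to 112 CPM in the Repop D5 clusters and 202 to 290 CPM in the CD clusters. Cluster 7, the monocyte-like one, was the richest Repop D5 cluster in Ccl9 at 205 CPM, and it had 222 CPM of Ccl6. In its CD barcodes Ccl9 had 382 CPM and Ccl6 had 308 CPM. The highest CD level of Ccl6, 404 CPM, was in cluster 10. Over all retained Repop D5 barcodes, 26.9% of those with Ccl9 had Ccl6 (18.7 to 36.5) against 18.4% of all, and in CD 41.4% had it (35.4 to 47.5) against 39.9% of all. Outside clusters 4, 7 and 10, 22.4% of Repop D5 barcodes with Ccl9 had Ccl6 (14.0 to 32.7) against 17.1% of all, and 41.3% of CD barcodes with Ccl9 had Ccl6 (34.2 to 48.6) against 38.3% of all.

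Ccl24, the eosinophil chemoattractant, and Pf4 were largely transcripts of cluster 4 in CD. Ccl24 had 2.63 CPM in Repop D5 (29 UMIs) and 62.6 CPM in CD (379 UMIs), 23.8-fold lower (16.3 to 36.1). Pf4 had 56.3 CPM in Repop D5 (621 UMIs) and 429 CPM in CD (2598 UMIs), 7.63-fold lower (6.98 to 8.34). Cluster 4 held 74.9% of the CD Ccl24 UMIs at 139 CPM and 72.3% of the CD Pf4 UMIs at 922 CPM, and a Pf4 UMI was found in 105 of its 106 barcodes. Outside clusters 4, 7 and 10 Ccl24 had 2.52 CPM in Repop D5 and 20.4 CPM in CD, 8.10-fold lower (5.06 to 13.3), and Pf4 had 39.1 CPM in Repop D5 and 130 CPM in CD, 3.32-fold lower (2.89 to 3.82). The clusterings at other settings put between 52.0% and 80.2% of the CD Ccl24 UMIs and between 45.0% and 82.6% of the CD Pf4 UMIs in the border macrophage-like cluster.

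In Repop D5 the Pf4 level was highest in the monocyte-like cluster 7. Its 43 Repop D5 barcodes, 7.78% of the library, held 34.9% of the Repop D5 Pf4 UMIs at 333 CPM, and the other Repop D5 clusters had at most 44.4 CPM. The richest of these barcodes had 58 Pf4 UMIs, and without it cluster 7 had 252 CPM. Its Repop D5 barcodes also carried border macrophage markers at 865 CPM, with Mrc1 at 138 CPM and Lyve1 at 1.53 CPM. In the 29 CD barcodes of cluster 7 Pf4 had 432 CPM and the border macrophage markers 854 CPM. The name monocyte-like holds for the main clustering only. In the clusterings at other settings the cluster led by Plac8 was left unnamed and held 9, 11 or 13 Repop D5 barcodes. Of the platelet markers Ppbp had 0.362 CPM in Repop D5 and was at 0 in CD, and the list of 9 summed to 9.60 CPM in Repop D5 and 72.5 CPM in CD, of which Gp9 had 7.16 CPM in Repop D5 and 67.0 CPM in CD. Gp1ba and Tubb1 were at 0 in both libraries.

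At equal depth, the share of barcodes with at least 1 UMI differed between the libraries beyond counting error for 7 of the 10 genes, all but Ccl3, Ccl4 and Ccl5. The share was higher in Repop D5 for 2 members, against 13.5% of the 8463 genes measured, and lower for 5, against 22.6%. The same 2 and 5 members, outside clusters 4, 7 and 10, stood against 12.6% and 20.4% of 8405 genes. With every barcode thinned to 3000 UMIs, Ccl12 was found in 72.7% of Repop D5 barcodes (exact 95% interval 68.8 to 76.4) and in 32.1% of CD barcodes (28.3 to 36.0). Ccl2 was found in 45.2% of Repop D5 barcodes (41.0 to 49.5) and in 20.2% of CD barcodes (17.1 to 23.6). Ccl3 was found in 19.5% of Repop D5 and 22.4% of CD barcodes, and Ccl4 in 20.3% of Repop D5 and 21.2% of CD barcodes, with intervals that overlap. Unthinned, Ccl3 was found in 53.7% of Repop D5 and 41.4% of CD barcodes and Ccl4 in 55.9% of Repop D5 and 38.9% of CD barcodes, the opposite order at unequal depth. Unthinned shares were 96.6% in Repop D5 and 53.5% in CD for Ccl12 and 83.2% in Repop D5 and 34.5% in CD for Ccl2.

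The lower genes had smaller shares in Repop D5. Ccl6 was found in 18.4% of Repop D5 and 39.9% of CD thinned barcodes and Ccl9 in 18.8% of Repop D5 and 44.4% of CD thinned barcodes. Ccl7 was found in 4.70% of Repop D5 and 22.0% of CD barcodes, Ccl24 in 1.27% of Repop D5 and 10.4% of CD barcodes, and Pf4 in 11.8% of Repop D5 and 38.4% of CD barcodes. Ccl5 was found in 1.81% of Repop D5 barcodes (0.870 to 3.30) and 1.00% of CD barcodes (0.368 to 2.17), which is not distinguishable at this depth. Unthinned, these 6 genes were found in 60.9% of Repop D5 and 63.7% of CD barcodes (Ccl6), in 57.9% of Repop D5 and 67.8% of CD barcodes (Ccl9), in 18.6% of Repop D5 and 42.9% of CD barcodes (Ccl7), in 4.70% of Repop D5 and 22.99% of CD barcodes (Ccl24), in 41.2% of Repop D5 and 57.0% of CD barcodes (Pf4), and in 6.15% of Repop D5 and 2.46% of CD barcodes (Ccl5).

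**Figure D4:**
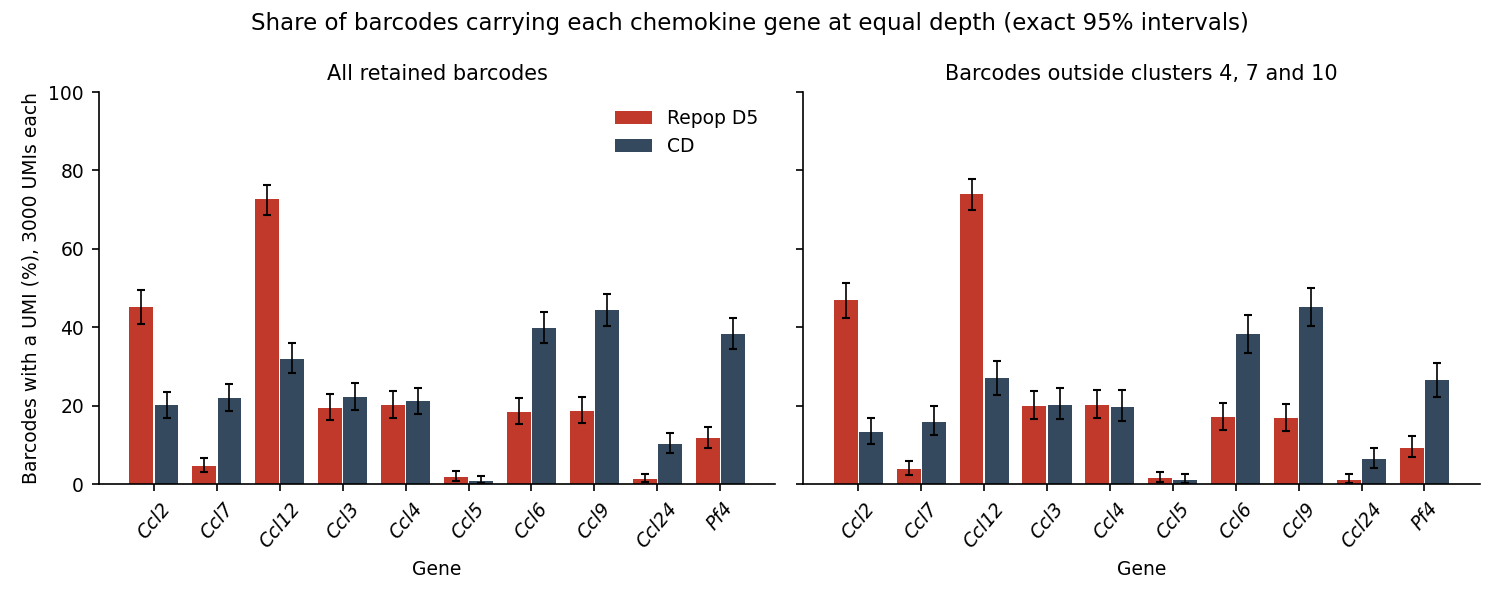
Share of barcodes with at least 1 UMI of each chemokine gene after thinning every barcode to 3000 UMIs, in Repop D5 (red, left of each pair) and CD (dark, right), over all retained barcodes and outside clusters 4, 7 and 10, with exact 95% intervals. The intervals overlap for Ccl3, Ccl4 and Ccl5 and are apart for the other 7 genes in both panels.

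Free RNA in droplets gives UMIs in cells that do not transcribe a gene, so the shares were set beside those of the neutrophil-like cluster 10. Whether its cells transcribe Ccl2, Ccl7, Ccl12, Ccl24 or Pf4 was not tested. In its CD barcodes (median 8646 UMIs) Ccl2 was found in 19.6%, Ccl7 in 19.6%, Ccl12 in 30.4%, Ccl24 in 6.52% and Pf4 in 34.8% of thinned barcodes. The CD barcodes outside clusters 4, 7 and 10 (median 5025 UMIs) had Ccl2 in 13.4%, Ccl7 in 16.0%, Ccl12 in 27.0%, Ccl24 in 6.46% and Pf4 in 26.6%. None of these 5 shares exceeded that of cluster 10, whose intervals ran from 9.36% to 33.9% for Ccl2 and from 17.7% to 45.8% for Ccl12. In CD, cluster 10 also had the higher levels of these genes, with Ccl2 at 190 CPM against 55.1 CPM and Pf4 at 332 CPM against 130 CPM. The comparison therefore cannot decide whether that set of CD barcodes expressed these genes. In CD cluster 6 taken alone, Ccl12 was found in 34.5% (24.6 to 45.4). The cluster 10 CD barcodes also carried microglia markers at 22448 CPM and border macrophage markers at 789 CPM. Border macrophage markers had 412 CPM in the CD barcodes outside clusters 4, 7 and 10. Cluster 10 is therefore not a clean background, and the part of microglial and border macrophage RNA in its chemokine shares was not tested. Ccl9 was found in 45.2% of the CD barcodes outside clusters 4, 7 and 10 and in 28.3% of those in cluster 10. In CD cluster 4 the shares were 42.5% for Ccl2, 44.3% for Ccl7, 27.4% for Ccl24 and 84.9% for Pf4. In Repop D5, outside clusters 4, 7 and 10, Ccl12 was found in 74.0% and Ccl2 in 46.9%, and cluster 10 there had only 7 barcodes (median 5416 UMIs), of which 42.9% had Ccl12 and 14.3% had Ccl2.

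The genes also differed in how evenly their UMIs were spread over barcodes. In thinned barcodes the richest 5% held 35.8% of the Ccl2 UMIs in Repop D5 and 74.7% in CD, and 29.99% of the Ccl12 UMIs in Repop D5 and 57.7% in CD. For Ccl7 the same barcodes held all thinned UMIs in Repop D5, where 26 barcodes had any, and 82.7% in CD. For Ccl6 they held 41.9% in Repop D5 and 40.7% in CD, and for Ccl9 45.7% in Repop D5 and 30.02% in CD. This share also rises when a gene has few UMIs, so it does not compare evenness apart from level. Ccl9 had 140 thinned UMIs in Repop D5 and 443 in CD. The variance over the mean of thinned UMIs, which also depends on level, was 1.54 in Repop D5 and 1.78 in CD for Ccl9. For Ccl6 it was 1.60 in Repop D5 and 4.46 in CD. Without thinning, 50 Repop D5 barcodes and 13 CD barcodes held 50% of the Ccl2 UMIs, and 67 Repop D5 barcodes and 92 CD barcodes held 50% of the Ccl9 UMIs. The 10 genes together took a median of 0.121% of the UMIs of a barcode in Repop D5 and 0.104% in CD, and at most 1.503% in Repop D5 and 8.91% in CD. The highest CD barcode was in cluster 4 and had 98 Ccl2, 226 Ccl7, 37 Ccl24 and 28 Pf4 UMIs among 4626. The highest Repop D5 barcode was in cluster 9 and had 116 Ccl2, 73 Ccl7, 22 Ccl4 and 22 Ccl12 UMIs among 15701.

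**Figure D5:**
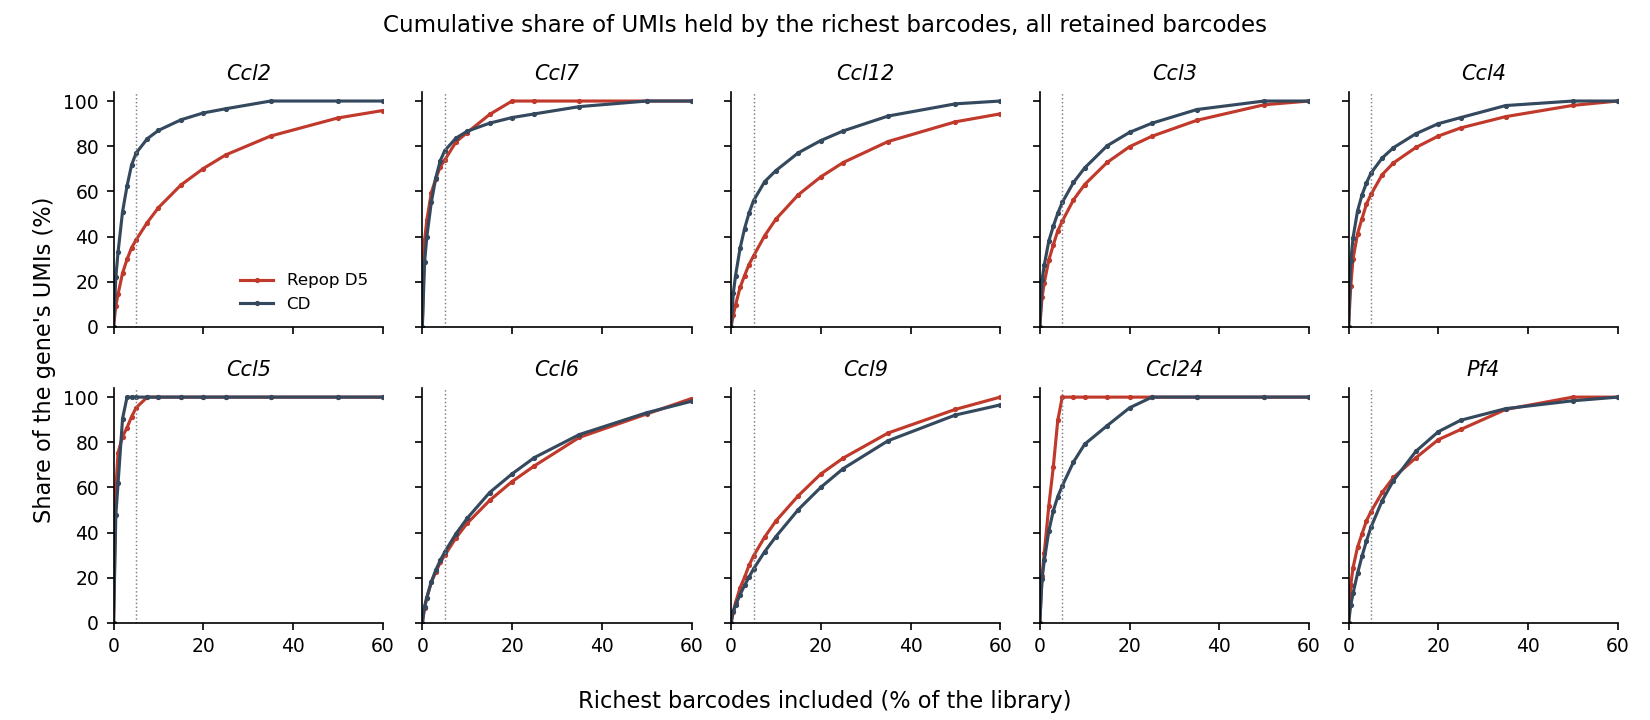
Cumulative share of the UMIs of each chemokine gene held by its richest barcodes, without thinning, in Repop D5 (red) and CD (dark), with the dotted line at 5% of the barcodes. The Ccl2 and Ccl12 curves climb more slowly in Repop D5 than in CD, and the Ccl6 and Ccl9 curves of the libraries lie close together.

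Among chemokine receptors, Cx3cr1 and Cxcr2 were lower in Repop D5 over all retained barcodes, and Ccr1 and Ccr2 were higher outside clusters 4, 7 and 10. Ccr1, the receptor of Ccl3, Ccl5, Ccl6 and Ccl9, had 68.9 CPM in Repop D5 and 35.3 CPM in CD. It had 67.6 CPM in Repop D5 and 14.0 CPM in CD outside clusters 4, 7 and 10, a ratio of 4.82 (3.55 to 6.69). Ccr2 had 26.4 CPM in Repop D5 and 40.5 CPM in CD over all retained barcodes, and 14.7 CPM in Repop D5 and 6.69 CPM in CD outside clusters 4, 7 and 10, a ratio of 2.20 (1.39 to 3.66). Cx3cr1, the fractalkine receptor of microglia, was 3.54-fold lower over all retained barcodes and 3.19-fold lower outside clusters 4, 7 and 10. Cxcr2, a receptor of neutrophils, was 4.15-fold lower over all retained barcodes. There all 10 neutrophil markers, Cxcr2 among them, were lower, against 23.8% of all genes. The markers summed to 2111 CPM in Repop D5 and 13181 CPM in CD. Cxcr2 had 2.32 CPM in Repop D5 and 2.55 CPM in CD outside clusters 4, 7 and 10. The part of neutrophils in the Cxcr2 difference was not tested. The decoy-like Ccrl2 had 26.7 CPM in Repop D5 and 27.6 CPM in CD. Ccr3, the receptor of Ccl24, had 0.725 CPM in Repop D5 and 1.32 CPM in CD, and Cxcr3 had 0.0906 CPM in Repop D5 and 3.14 CPM in CD. Of 9 other CC chemokines Ccl8 alone was measured, with 0 UMIs in Repop D5, which allows a level of up to 0.272 CPM, and 22.1 CPM in CD. Of the CXC and other chemokines 4 were measured, of which 3 were higher, against 9.61% of all genes measured. These were Cxcl10 with 84.5 CPM in Repop D5 and 10.7 CPM in CD, Cxcl14 with 14.3 CPM in Repop D5 and 1.65 CPM in CD, and Cxcl16 with 152 CPM in Repop D5 and 73.6 CPM in CD. Cxcl2 was lower, with 29.4 CPM in Repop D5 and 63.9 CPM in CD.

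The lists of genes that often accompany chemokine transcription differed among themselves. Of 21 immediate early genes measured, which respond within minutes to stimuli and to tissue dissociation, 0 were higher and 17 were lower in Repop D5, against 9.61% and 23.8% of all genes measured, and the list summed to 2285 CPM in Repop D5 and 9798 CPM in CD. Jun had 236 CPM in Repop D5 and 1835 CPM in CD, Junb had 368 CPM in Repop D5 and 1213 CPM in CD, and Fos had 206 CPM in Repop D5 and 1060 CPM in CD. Jund was 8.02-fold lower and Klf4 8.60-fold lower, while Dusp2 had 18.0 CPM in Repop D5 and 17.0 CPM in CD and Fosl2 had 13.2 CPM in Repop D5 and 19.3 CPM in CD. The part of the dissociation response in the chemokine levels was not tested. In Repop D5 the immediate early list summed to 6503 CPM in cluster 9, where Ccl3 and Ccl4 were highest, and to 1622 to 3040 CPM in the other clusters. The leading genes of cluster 9, used in the clustering, include members of the list. In CD the list was highest in cluster 7 at 14264 CPM, where Ccl3 was lowest at 49.6 CPM and Ccl4 had 154 CPM. It summed to 13686 CPM in CD cluster 3, where Ccl3 was highest at 333 CPM, and to 11919 CPM in cluster 4, with Ccl3 at 189 CPM.

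Of 19 NF-kB targets and feedback genes measured, 2 were higher and 7 were lower in Repop D5, against the same 9.61% and 23.8% of all genes. Bcl2a1d had 186 CPM in Repop D5 and 27.2 CPM in CD, and Tnf had 71.8 CPM in Repop D5 and 31.4 CPM in CD. Tnfaip2 was 4.09-fold lower and Nfkbie 3.21-fold lower, Nfkbia had 197 CPM in Repop D5 and 530 CPM in CD, and Cd83 had 112 CPM in Repop D5 and 147 CPM in CD. Of 14 type I interferon response genes measured, 3 were higher and 0 were lower, against 9.61% and 23.8%. Ifi204 had 71.6 CPM in Repop D5 and 27.6 CPM in CD, Irf7 had 30.6 CPM in Repop D5 and 14.4 CPM in CD, Ifitm3 had 408 CPM in Repop D5 and 242 CPM in CD, and Bst2 had 279 CPM in Repop D5 and 243 CPM in CD. Stat2 had 10.2 CPM in Repop D5 and 16.7 CPM in CD, and Xaf1 had 26.0 CPM in Repop D5 and 27.1 CPM in CD. With the scale shifts given above, Ccrl2 and Xaf1 turn from lower to higher under both other scalings and Cd83 under trimmed-mean scaling.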

How the data were processed

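The authors deposited a matrix of UMI counts per gene and barcode for each of the 2 libraries and a pooled matrix. Cell Ranger 2.1.0 and the build mm10 are named in the submitters' processing notes. The rule that called cells and the annotation release are not given in the sources used here. The deposited counts were summed over barcodes with at least 500 genes and under 10% mitochondrial UMIs and divided by the library total (CPM), which is relative, so each gene's level depends on all others. Intervals are exact Poisson intervals for levels, exact conditional binomial intervals for ratios and Clopper-Pearson intervals for shares, all at 95%. For shares each barcode was thinned to 3000 UMIs (median of 20 draws), which left out 0 Repop D5 and 10 CD barcodes.

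Clusters (scanpy 1.11.5, leidenalg 0.10.2; Leiden resolution 1, 2000 variable genes, 30 principal components, 15 neighbours) were built with 46 chemokine genes left out. A cluster was called after a cell type only from listed markers. No cluster was called monocyte-like in the clusterings at other settings. No doublets were removed. Scrublet called 12 Repop D5 and 10 CD barcodes, and 6 of these CD barcodes were in cluster 4. Python 3.11.15, numpy 2.4.6, scipy 1.17.1 and edgeR 4.0.16 (trimmed-mean scaling alone) were used, and the ratio and its call were tested on simulated data. The members and gene lists were chosen with earlier results of these data known. From each list of related genes the text names those with the 2 highest and 2 lowest ratios and the 2 most abundant, with Ppbp, Fos, Ccr1, Ccr2, Ccr3 and Cxcr3 always named. One listed receptor is not reported here, so the receptor list is given without counts.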

Additional observations from a re-analysis of the deposited data

How the results depend on the processing

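Of 248 recomputed values 153 stayed within a set limit, 95 moved beyond it and 0 reversed a called direction. For ratios and for cluster shares of UMIs the limit was the 95% interval of the main value. Counts of called genes were allowed a factor of 1.5, and differences in shares of barcodes a limit drawn from the widths of their intervals. The members called higher numbered 1 instead of 2 at a minimum of 50 CPM and, in an alternative added after seeing the data, without the barcode richest in each gene, with Ccl12 the remaining one in both cases. Trimmed-mean scaling left 4 members lower, without Ccl6, and a fold of 1.5 gave 6, with Ccl3. All genes called lower numbered 2015, against 855 with trimmed-mean scaling, 1368 without mitochondrial and ribosomal protein genes in the total, 3465 with no minimum of CPM and 3561 at a fold of 1.5. All genes called higher numbered 813, against 1545, 1285, 1186 and 1423 under these settings, and 431 at a minimum of 50 CPM, where 774 were lower. The ratio ran from 1.27 to 6.51 for Ccl2 over all alternatives, and Ccl7 was 2.14-fold to 11.5-fold lower. The ratios of Ccl2, Ccl7, Ccl12, Ccl24 and Pf4 moved by over 1.5 times outside clusters 4, 7 and 10, that of Ccl5 when thinned (6.23), and that of Ccl24 also when thinned or with equal weight per barcode. No paired analysis was possible because each group is 1 library. The CD depth limits the rare genes most, since 3 UMIs there equal 0.495 CPM, against 0.272 CPM in Repop D5.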
